A study of Mus musculus with 8 samples.

Results

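The histone genes of the mouse oocyte were compared between wild-type and Dicer-deficient mice. Dicer is the ribonuclease that cuts microRNA precursors and long double-stranded RNA into small RNAs. Members were the genes whose only symbol in the platform annotation starts with Hist1h to Hist4h, H1f, H2af or H3f3, with the probe set of the highest mean over the 8 arrays taken for each gene. As written, this pattern found 8 genes of 18193 with a probe set of their own: the linker histones H1f2, H1f4, H1f6, H1f7, H1f8 and H1f10 and the H3.3 genes H3f3a and H3f3b. The annotation already carries the newer names of most histone genes, so the same pattern was also applied to the older symbols that RefSeq lists, which added 16 genes and gave 24. That extension was chosen after the files were seen, and both counts are given throughout. A further 27 probe sets list several genes with a histone gene among them, and are described apart because they cannot be given to a single gene.

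The study holds 8 Affymetrix MOE430 v2 arrays, 1 per mouse, from 4 wild-type and 4 Dicer knockout females of strain 129/C57BL6. The mice were primed with eCG, a gonadotropin that stimulates follicle growth. From each mouse, 20 fully grown oocytes with an intact germinal vesicle were stripped of cumulus cells with a pipette, and their RNA was amplified linearly in 2 rounds. The labels name neither the deleted Dicer exons, nor a Cre driver, nor the age of the mice. Values are log2 signals made with RMA, and each difference is knockout minus wild type. The number of arrays limits the precision.

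A nucleosome wraps DNA around a core of histones H2A, H2B, H3 and H4, and a linker histone H1 binds where the DNA enters and leaves. Canonical histones are made from clustered genes during DNA replication, and their mRNAs end in a stem-loop in place of a poly(A) tail. Variants such as H3.3, H2A.X and H2A.Z are made outside replication as well, mostly from polyadenylated mRNAs. The growing oocyte does not replicate its DNA but stores histone mRNA and protein for the embryo, and it carries its own linker histone, H1foo, the product of H1f8, which somatic H1 replaces after fertilisation. How the amplification was primed was not given in the sources used here, and replication-dependent mRNAs without a tail may be captured differently from tailed ones.

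The only linker genes that passed the test, H1f4 and H1f8, belong to different promoter types. H1f2 and H1f6 share the type of H1f4 but gave no call. The promoters of these 4 genes were chosen with the calls known, and their part in the calls was not tested. They are RefSeq promoters of GRCm38.p6, 250 bases before to 50 bases after the start, 5′ to 3′ on the gene's strand, at chr13:23738557-23738856 (H1f2, plus strand), chr13:23622509-23622808 (H1f4, minus strand), chr13:23695561-23695860 (H1f6, plus strand) and chr6:115944681-115944980 (H1f8, plus strand). Capitals mark motifs. The H1 box was searched as AAACACA. The CCAAT box was searched by the letters of its name, and reads ATTGG where it lies on the other strand. The TATA box was searched as TATAAA.
H1f2: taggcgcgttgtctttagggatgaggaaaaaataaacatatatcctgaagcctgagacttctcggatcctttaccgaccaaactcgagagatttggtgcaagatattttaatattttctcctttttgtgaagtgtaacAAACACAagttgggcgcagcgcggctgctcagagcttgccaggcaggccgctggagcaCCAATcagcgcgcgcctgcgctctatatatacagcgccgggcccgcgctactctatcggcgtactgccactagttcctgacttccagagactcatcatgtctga
H1f4: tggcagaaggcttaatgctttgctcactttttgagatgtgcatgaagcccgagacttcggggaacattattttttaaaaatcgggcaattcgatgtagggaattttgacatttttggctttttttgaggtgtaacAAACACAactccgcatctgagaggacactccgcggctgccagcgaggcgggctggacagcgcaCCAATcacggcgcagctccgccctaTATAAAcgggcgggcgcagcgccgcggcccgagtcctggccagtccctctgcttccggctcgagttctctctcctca
H1f6: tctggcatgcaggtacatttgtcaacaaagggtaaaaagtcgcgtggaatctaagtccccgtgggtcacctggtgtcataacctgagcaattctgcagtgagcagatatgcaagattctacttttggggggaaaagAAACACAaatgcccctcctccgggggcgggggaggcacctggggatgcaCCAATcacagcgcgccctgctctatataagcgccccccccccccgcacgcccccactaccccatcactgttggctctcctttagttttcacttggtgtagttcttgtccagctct
H1f8: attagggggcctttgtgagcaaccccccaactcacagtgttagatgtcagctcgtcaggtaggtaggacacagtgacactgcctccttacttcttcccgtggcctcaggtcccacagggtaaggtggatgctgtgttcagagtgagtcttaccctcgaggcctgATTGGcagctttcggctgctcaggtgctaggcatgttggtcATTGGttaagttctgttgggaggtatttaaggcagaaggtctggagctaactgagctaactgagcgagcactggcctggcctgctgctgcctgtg

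The H1 box, an element known from the promoters of replication-dependent H1 genes, lay at 112, 115 and 114 bases before the start in H1f2, H1f4 and H1f6. In each of these it stood on the gene's strand, upstream of a CCAAT box at 54, 52 and 65 bases before the start. The H1f8 window held no AAACACA and 2 CCAAT boxes on the other strand, at 86 and 45 bases before the start. Of the 24 genes, 20 had a promoter in the RefSeq table. Searched on both strands, AAACACA was in 4 of the 20, the fourth being H3f3a, with its match on the other strand at 181 bases. CCAAT was in 16 and TATAAA in 5. Over 32851 RefSeq promoters of the same length, 7.18% held AAACACA, 37.4% CCAAT and 13.6% TATAAA. The 3 motifs share no overlapping letters in the windows shown. A match of letters is a description of the window.

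Of the 8 genes found as the pattern is written, H1f4 rose, H1f8 fell and 6 did not pass the test (limma, Benjamini-Hochberg adjusted p under 0.05 over 45037 probe sets). That is 12.5% in each direction, where 8.18% of all 18193 genes were higher and 12.8% lower in the knockout. With the older symbols, 4 of 24 genes rose (H1f4, H2ax, H2ac19 and H3c4) and 3 fell (H1f8, H2aj and H3c7), or 16.7% and 12.5%. The knockout values lay wholly outside the wild-type values for 2 of the 8 and for 6 of the 24 genes, 25% of each, against 26.2% of all genes. The median difference was 0.15 over the 8 genes and 0.08 over the 24, beside 0.0027 over all genes. The shares of lower genes and of groups that do not overlap lie near those of all genes, and the share of higher genes is above it, with calls for H1f4, H2ac19 and H3c4 that ended when single arrays were left out. The count of 4 higher genes became 1 without wild-type array 1 or without wild-type array 2, and 2 without knockout array 1. The median over 24 genes was 0.16 without wild-type array 4.

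**Figure D1:**
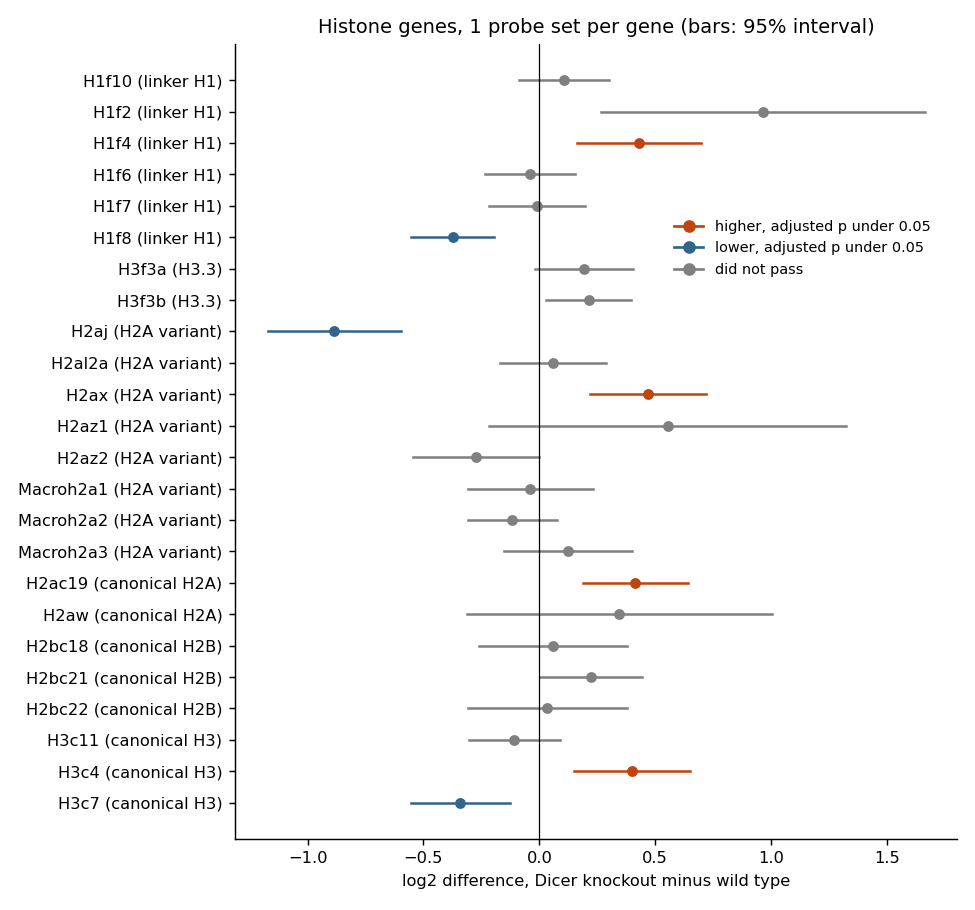
Log2 difference (knockout minus wild type, horizontal axis) of the 24 histone genes, 1 probe set per gene, with the 95% interval as a bar, 4 arrays per group. Red genes (H1f4, H2ax, H2ac19, H3c4) were higher and blue genes (H1f8, H2aj, H3c7) lower at an adjusted p under 0.05. The other 17 genes are grey, among them H1f2, at 0.96 with the widest interval of the linker genes.

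H1f8 encodes H1foo, the linker histone of the oocyte. On the wild-type arrays it read 13.12, 12.95, 13.16 and 13.23, and on the knockout arrays 12.77, 12.80, 12.74 and 12.65. Every knockout oocyte sample was below every wild-type sample. The mean fell from 13.11 ± 0.12 to 12.74 ± 0.07 (SD, n = 4 each), a difference of -0.37 ± 0.08 (SE) with an adjusted p of 0.0113, which is a signal 1.30-fold higher in the wild type. It passed in all 17 alternative settings, with differences from -0.43 to -0.30.

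Marker lists of the cell types the samples could hold are given beside the fall of H1f8, where 12.8% of all genes were lower and 8.18% higher. Of 20 cumulus and granulosa cell markers measured, 10 (50%) were lower and 0 higher in limma (11 lower and 1 higher at an unadjusted p under 0.05), and their summed linear signal ran from 10818 to 16682 in the wild type and from 7256 to 9210 in the knockout, with 0 markers at zero. Of the 16 oocyte markers, 6 (37.5%) were lower, Mos, Figla, Dppa3, Zar1, Ooep and Tle6, and 0 higher (6 and 1 unadjusted), with summed signals of 240280 to 253206 and 226473 to 240471. The zona pellucida genes Zp1, Zp2 and Zp3 and the growth factor gene Gdf9 did not pass, with differences of -0.016, -0.020, -0.016 and -0.07. Of 15 markers of other ovarian and blood cells, 1 was higher (6.67%) and 2 lower (13.3%), near the shares of all genes. Cd68, a macrophage marker, was higher by 1.16 (adjusted p 5.4e-05). The endothelial genes Tek and Kdr were lower, with differences of -0.78 (adjusted p 0.0019) and -0.54 (adjusted p 0.0071). The macrophage and leukocyte genes Adgre1, Csf1r and Ptprc did not pass, at 0.18, 0.12 and -0.03. Nor did the endothelial genes Pecam1 and Cdh5, at -0.32 and -0.06. That list's summed signals were 1865 to 2050 and 1747 to 1957, with 0 markers at zero. Fewer cells of a type and less RNA per cell cannot be told apart in such samples, and the part of these markers' cells in the lower values of H1f8, H2aj and H3c7 was not tested. Both probe sets of Dicer1 were higher in the knockout, by 1.19 (adjusted p 2.12e-05) and 0.69 (adjusted p 0.0017), but without the deleted exons in the labels this does not check the genotype.

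H1f2 encodes H1.2, a somatic linker histone with the largest positive difference among the 24 genes. Its wild-type arrays read 9.97, 9.35, 8.90 and 10.30 and its knockout arrays 10.02, 10.94, 10.44 and 10.97. Knockout array 1 lay below wild-type array 4, so the groups overlapped, and the wild-type samples alone spanned more than 1 log2 unit. The means were 9.63 ± 0.62 and 10.59 ± 0.45 (SD, n = 4 each), a difference of 0.96 ± 0.31 (SE) that missed the threshold at an adjusted p of 0.0659. A second probe set of the gene gave 0.91 (adjusted p 0.0653) with the same order of arrays within each group. Its remaining probe set gave 0.14 (adjusted p 0.366). H1f2 passed under 4 of 17 alternatives: cyclic loess scaling (1.06, adjusted p 0.0469), the mean of its probe sets (0.67, adjusted p 0.0466), without wild-type array 4 (1.19, adjusted p 0.0326) and without knockout array 1 (1.15, adjusted p 0.0436). Over all alternatives its adjusted p ran from 0.0326 to 0.366.

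The difference between the H1f2 and H1f8 signals can be read within each array. The H1f2 signal minus the H1f8 signal was -3.15, -3.60, -4.26 and -2.93 on the wild-type arrays and -2.74, -1.87, -2.31 and -1.67 on the knockout arrays. The knockout values were all above the wild-type values, with a mean shift of 1.34. The shift is made of the H1f2 and H1f8 differences given above and adds no separate evidence. It uses the brightest H1f2 probe set, and the gene's remaining set differed by only 0.14. This pair was chosen after its values were seen and is given without a test, and the shift between genotypes, not the level, is what it shows.

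H1f4 encodes H1.4, another somatic linker histone, and was the only one of the 8 genes to rise. It read 4.06, 4.06, 4.01 and 4.02 on the wild-type arrays and 4.49, 4.24, 4.31 and 4.82 on the knockout arrays. All 4 knockout samples were above the wild type, which lay at the low end of the array's range with almost no spread. The difference was 0.43 ± 0.12 (SE), or 1.35-fold, with an adjusted p of 0.0374. The call ended when any one of the 4 wild-type arrays or knockout array 1 was left out (adjusted p 0.0684, 0.0763, 0.0788, 0.0833 and 0.0824) and under quantile, median and cyclic loess scaling (0.0669, 0.0567 and 0.0730). Over all alternatives the adjusted p ran from 0.0233 to 0.0833. A filter that keeps probe sets with a mean above 5 removes the gene.

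**Figure D2:**
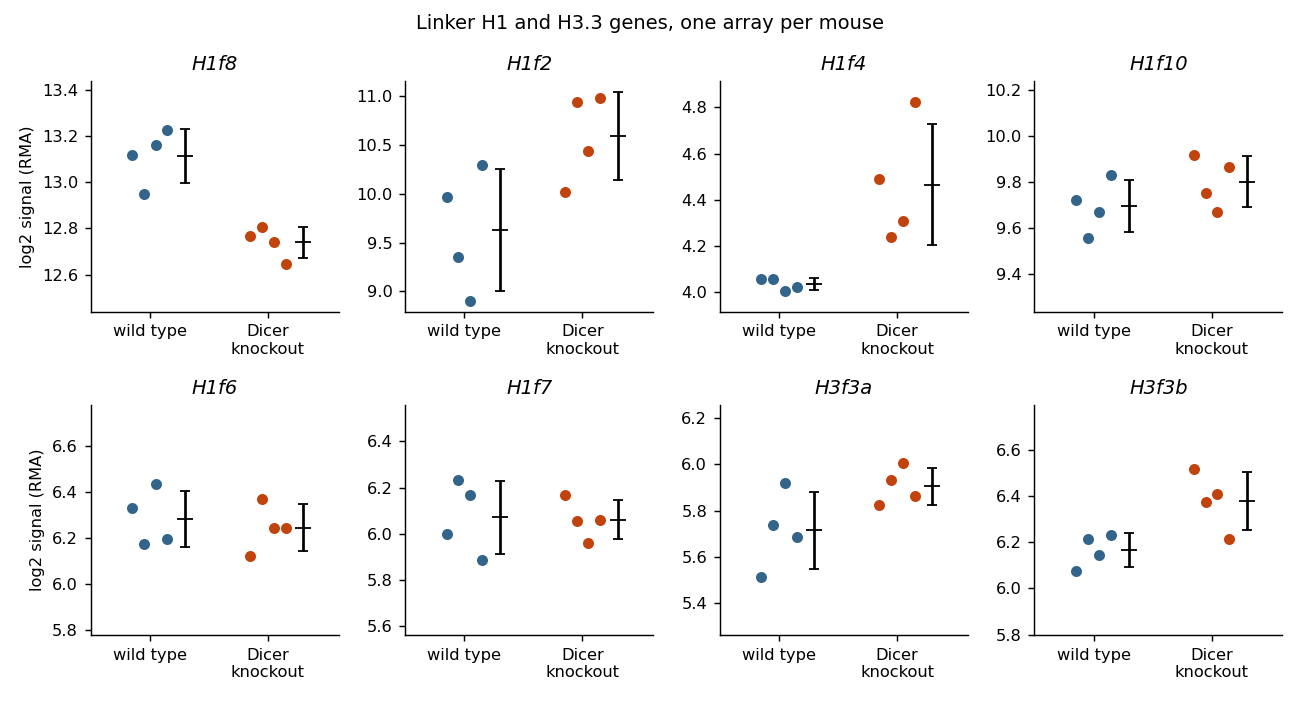
Log2 RMA signal of the 6 linker H1 genes and the 2 H3.3 genes on each array (points; blue wild type, red Dicer knockout), with the group mean and SD beside the points; each panel has its own vertical axis. The groups are apart for H1f8 (wild type 12.95 to 13.23, knockout 12.65 to 12.80) and H1f4, and overlap for the other 6 genes.

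The other linker genes gave no call. H1f10, the source of the replication-independent H1x, read 9.72, 9.56, 9.67 and 9.83 in the wild type and 9.92, 9.75, 9.67 and 9.87 in the knockout, a difference of 0.11 (95% interval -0.09 to 0.30, adjusted p 0.476). H1f6 and H1f7 encode the testis linker histones H1t and H1t2. Their differences were -0.04 (95% interval -0.23 to 0.15) and -0.01 (95% interval -0.22 to 0.20), and their group means lay between 6.06 and 6.28.

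The H3.3 genes, which supply the replication-independent H3, gave no call in their own or in their shared probe sets. H3f3a read 5.51, 5.74, 5.92 and 5.69 in the wild type and 5.82, 5.93, 6.004 and 5.86 in the knockout, a difference of 0.19 (adjusted p 0.219). H3f3b read 6.07, 6.21, 6.14 and 6.23 against 6.52, 6.37, 6.41 and 6.22, a difference of 0.21 (95% interval 0.03 to 0.40, adjusted p 0.118). Neither passed, and in both the groups overlapped. The group means of these single-gene sets lay near or below the array medians of 6.35 to 6.43. How much of the H3.3 mRNA the single-gene sets report was not tested, because the sets that the genes share read far higher. The 5 shared probe sets each list H3f3a, H3f3b, H3f3c and 3 predicted genes together, with group means from 12.18 to 14.09. Their differences ran from -0.13 to 0.06, with adjusted p values from 0.359 to 0.918. Across these 5 sets the 95% intervals of the difference reached from -0.34 to 0.22.

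Among the H2A variants, H2aj fell furthest. It encodes H2A.J, a mammalian H2A variant known to build up in senescent cells. Wild-type arrays read 10.29, 9.88, 10.22 and 10.26 and knockout arrays 9.36, 9.12, 9.09 and 9.54. No knockout value reached the lowest wild-type value. The difference was -0.88 ± 0.13 (SE), a signal 1.85-fold higher in the wild type, with an adjusted p of 0.0015, and it passed in all 17 alternatives, from -0.98 to -0.77. A second probe set gave -0.84 (adjusted p 0.0080) and another -0.59 (adjusted p 0.058, not passed).

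H2ax encodes H2A.X, the variant phosphorylated around DNA double-strand breaks, and it rose. It read 12.37, 12.17, 12.47 and 12.62 in the wild type and 12.80, 13.07, 12.76 and 12.87 in the knockout. No knockout sample was as low as the highest wild-type sample. The difference was 0.47 ± 0.11 (SE), or 1.38-fold, with an adjusted p of 0.0185 that stayed under the threshold in all 17 alternatives and reached 0.0460.

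The 2 genes of H2A.Z, a variant found at promoters, did not pass and differed in how much they varied. H2az1 read 11.16, 10.34, 10.18 and 9.58 in the wild type and 11.22, 10.16, 10.71 and 11.38 in the knockout, a difference of 0.55 with a 95% interval from -0.22 to 1.32 (adjusted p 0.336). High values came from both groups, on wild-type array 1 and knockout arrays 1 and 4, and wild-type array 4 was lowest. A second probe set of H2az1, at 10.26, 9.55, 9.16 and 9.14 against 10.10, 9.29, 9.74 and 10.46, and both sets shared with the predicted gene Gm8203 had the same 3 arrays on top. H2az2 had a smaller spread and a difference of -0.27 (adjusted p 0.170).

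The macroH2A genes did not pass. The products of Macroh2a1 and Macroh2a2 carry a large extra domain and are known from silent chromatin. Macroh2a1 differed by -0.04, Macroh2a2 by -0.12 and Macroh2a3 by 0.12. RefSeq lists Macroh2a3 as a transcribed pseudogene, and its group means of 3.84 and 3.96 lay at the low end of the array's range. H2al2a, matched through the older symbol H2afb1, which RefSeq lists for H2ab1 as well, is a short H2A of the male germ line and differed by 0.06 (adjusted p 0.763).

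**Figure D3:**
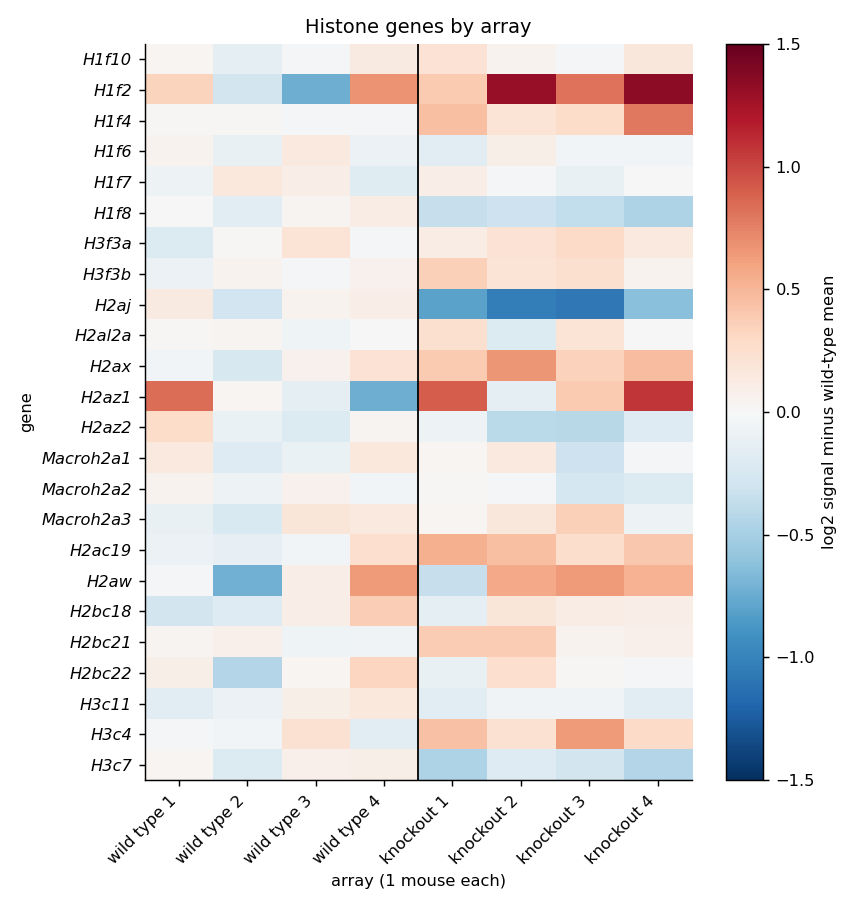
Log2 signal of the 24 histone genes (rows) on each of the 8 arrays (columns, 1 mouse each) as the difference from that gene's wild-type mean, red above and blue below. H1f8 and H2aj are blue and H1f4, H2ax and H1f2 red on all 4 knockout arrays, and other genes, some with no call, also keep a single colour there. H1f2 and H2az1 vary widely within the wild type, from 8.90 to 10.30 and from 9.58 to 11.16.

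By their symbols alone, 8 core genes with a probe set of their own were classed as canonical. Of these, 2 rose (25%), 1 fell (12.5%) and 5 did not pass, beside 8.18% and 12.8% of all genes. H2ac19, an H2A gene of the chromosome 3 cluster, read 8.22, 8.18, 8.26 and 8.56 in the wild type and 8.84, 8.76, 8.57 and 8.70 in the knockout. The lowest knockout value lay just above the highest wild-type value. The difference was 0.41 ± 0.10 (SE, adjusted p 0.0204), and a second probe set gave 0.43 (adjusted p 0.0216). The chosen probe set has the suffix x, which marks probes that can bind other transcripts. H2ac19 also has a near copy, H2ac18, with which 1 further set is shared, so its signal is uncertain as to gene. That shared set differed by 0.002 (adjusted p 0.994), with group means of 3.41 and 3.42 at the low end of the array's range. Leaving out a single array ended the H2ac19 call in 3 cases: wild-type array 1 at an adjusted p of 0.0512, the wild type's array 2 at 0.0593 and knockout array 1 at 0.0570. Over all alternatives its adjusted p ran from 0.0059 to 0.0593.

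In their own probe sets, H3c4 and H3c7, H3 genes of the large chromosome 13 cluster, went opposite ways. H3c4 read 5.15, 5.14, 5.41 and 5.03 in the wild type and 5.62, 5.42, 5.82 and 5.48 in the knockout, a rise of 0.40 (adjusted p 0.0378) in which the groups were barely apart. H3c7 read 8.39, 8.16, 8.44 and 8.45 against 7.90, 8.17, 8.08 and 7.93, a difference of -0.34 (adjusted p 0.0371) in which wild-type array 2 lay among the knockout values. Both were close to the threshold, and the H3c4 group means of 5.18 and 5.58 lay below the array medians of 6.35 to 6.43. Shared probe sets that list both genes among others differed by -0.07, -0.51, 0.09 and 0.05, and none of these passed. The H3c4 call ended without wild-type array 1, 2 or 4 or knockout array 1, 3 or 4, with adjusted p values up to 0.0999. The H3c7 call ended without wild-type array 1, 3 or 4 or knockout array 1, 3 or 4, with adjusted p values up to 0.0966, and also under quantile scaling (0.0975), cyclic loess scaling (0.0788) and a trended robust variance model (0.0619). The lowest adjusted p over the alternatives was 0.0210 for H3c4 and 0.0204 for H3c7.

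The other genes classed as canonical did not pass. H2aw, a replication-dependent H2A gene on chromosome 11, differed by 0.35 (adjusted p 0.496), with wild-type array 2 at 7.87 and knockout array 1 at 8.25 below the rest of their groups. H2bc18, H2bc21 and H2bc22 encode H2B and differed by 0.06, 0.22 and 0.03, and H3c11, an H3 gene, by -0.11. No H4 gene was measured by a probe set of its own.

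Many canonical histone genes, H4 among them, were read only by probe sets that several genes share. Of the 27 shared probe sets, 19 list histone genes alone and 8 also list another or a predicted gene. In limma 0 were higher and 0 lower, against 6.82% and 9.31% of all 45037 probe sets, while 2 had an unadjusted p under 0.05, both lower. These were a set of 10 H2A genes, which read 7.17, 6.62, 6.55 and 6.62 in the wild type and 6.003, 6.49, 6.35 and 5.94 in the knockout (difference -0.55, adjusted p 0.0541), and a set of H2bu1-ps and H2bu2 (difference -0.58, adjusted p 0.112).

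The shared sets of H2B, H3 and H4 differed in how widely the wild-type arrays spread. An H2B set of H2bc4, H2bc6 and H2bc8 went from 11.44 ± 0.32 to 11.22 ± 0.23 (SD, n = 4 each; 95% interval of the difference -0.59 to 0.15). An H3 set that lists 8 genes read 8.16, 8.002, 8.54 and 9.31 against 7.60, 8.37, 8.08 and 7.93, where wild-type array 4 stood highest. The H4 sets each list 13 genes and differed by -0.65 to 0.14. In the H4 set with the largest difference, the wild-type arrays spread over 7.89, 6.46, 5.45 and 7.81, and the knockout arrays stayed at 5.92, 6.36, 6.32 and 6.39, inside the wild-type range. The order of the wild-type arrays in that H4 set resembled that of H1f2, with arrays 1 and 4 high and array 3 lowest. The brightest H4 set, which lists the same 13 genes, did not share this order, at 10.03, 9.996, 10.60 and 9.95 in the wild type. Another H4 set, at 6.67, 6.19, 6.56 and 6.27, did not share it either. The summed cumulus and granulosa marker signal was also highest on wild-type arrays 1 and 4, at 16439 and 16682, and lowest on array 3, at 10818. On the knockout arrays the sums were 9187, 7709, 7256 and 9210, where H1f2 read 10.02, 10.94, 10.44 and 10.97. Every knockout sum lay below every wild-type sum, while the mean of H1f2 was higher in the knockout. The part of these markers' cells in the H1f2 and H4 values was not tested.

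**Figure D4:**
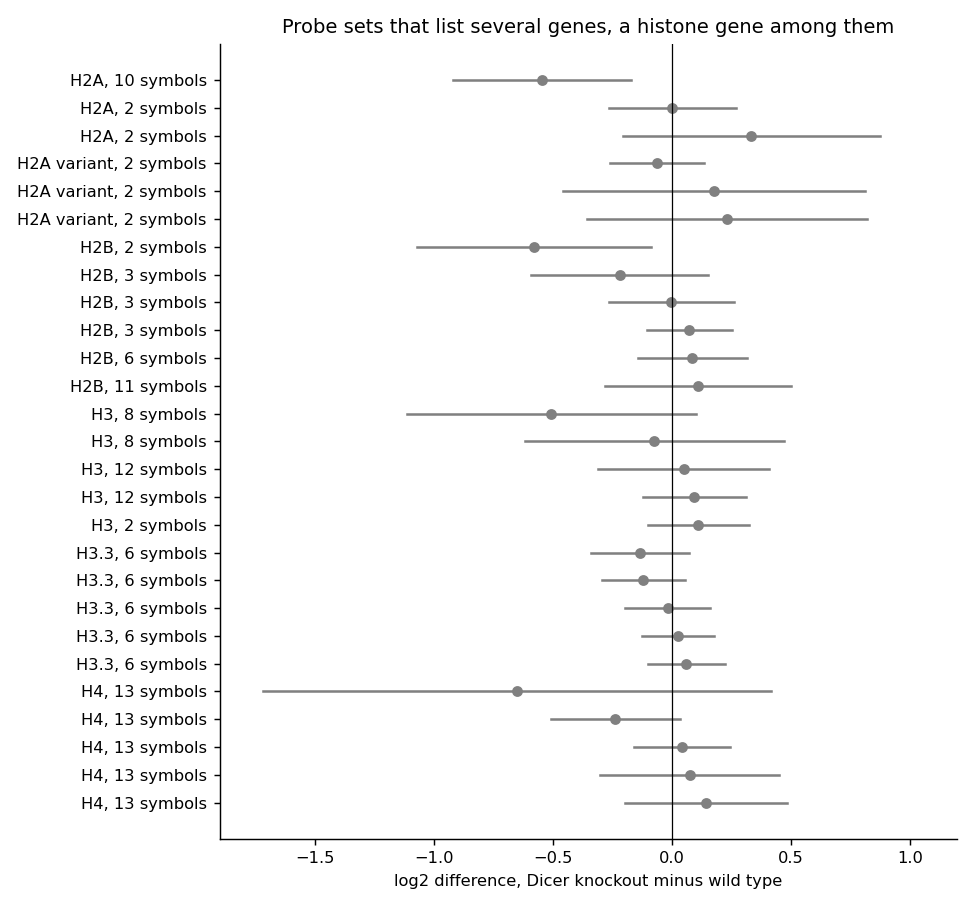
Log2 difference (knockout minus wild type, horizontal axis) with its 95% interval for the 27 probe sets that list several genes, by histone class and number of symbols, 4 arrays per group. None passed an adjusted p under 0.05; the 5 H3.3 sets lie between -0.13 and 0.06, and the widest interval belongs to an H4 set at -0.65.

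Genes that make, process and place histones were read from fixed lists. In the list for transcription of replication-dependent histone genes, 13 of 14 were measured, 1 was higher and 1 lower (7.69% each, beside 8.18% and 12.8% of all genes; median 0.08). Yy1, a zinc-finger transcription factor that binds histone genes among many others, rose by 1.23 (adjusted p 0.0160) and was called higher in 2 probe sets of 4. Casp8ap2, a component of the histone locus body, fell by 0.41 (adjusted p 0.0098). Npat, the cyclin E-CDK2 substrate that activates histone genes, read 9.56, 9.49, 9.31 and 9.35 against 9.12, 8.87, 9.16 and 9.29 (difference -0.32, adjusted p 0.0616), and passed under median scaling (adjusted p 0.0496) and without knockout array 4 (0.0464), in a range of 0.0464 to 0.357 over the alternatives.

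Zfp473 showed the largest difference of the 3 histone pathway lists. It encodes ZFP100, a zinc-finger protein of the machinery that cuts histone pre-mRNA at the 3′ end with the U7 small nuclear ribonucleoprotein. Its 1 probe set read 12.35, 11.20, 10.99 and 10.51 in the wild type and 14.17, 14.13, 14.05 and 14.05 in the knockout. Every knockout array lay more than 1.5 log2 units above the highest wild-type array, and the knockout arrays were nearly level while the wild-type arrays spread. The difference was 2.84 ± 0.32 (SE), or 7.17-fold (95% interval 4.39 to 11.7), with an adjusted p of 0.00034 and a range of 2.59 to 3.20 over 17 alternatives, in all of which it passed.

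In the whole list for 3′ end processing and histone mRNA decay, all 26 genes were measured, 4 higher (15.4%) and 3 lower (11.5%), beside 8.18% and 12.8% of all genes, with a median of -0.17. Srrt, which links the cap-binding complex to RNA processing, rose by 0.70 (adjusted p 0.0028). Cstf2, a subunit of the cleavage stimulation factor, rose by 0.52 (adjusted p 0.0092). It was called higher in 2 of its 3 probe sets, and the other differed by 0.02 (adjusted p 0.90). Snrpb, an Sm protein of small nuclear ribonucleoproteins, rose by 0.82 (adjusted p 0.0289), with groups that overlapped. The Snrpb call ended when wild-type array 2, 3 or 4 or knockout array 1, 3 or 4 was left out (adjusted p up to 0.0780). A second Snrpb probe set gave 0.39 (adjusted p 0.106, not passed). Ncbp2, a subunit of the nuclear cap-binding complex, fell by 0.64 (adjusted p 0.00028), and was lower in each of its 3 probe sets. Cstf2t, the paralogue of Cstf2, fell by 0.52 (adjusted p 0.0295). That call ended without wild-type array 1, 2 or 4 or knockout array 2, 3 or 4 (adjusted p up to 0.0769) and under cyclic loess scaling (0.0578). Slbp, the protein that binds the histone stem-loop, read 13.87, 13.87, 13.89 and 13.84 against 13.85, 13.91, 13.92 and 13.86, a difference of 0.02 (adjusted p 0.883). Lsm10 and Lsm11, the U7-specific Sm-like proteins, differed by -0.22 (adjusted p 0.115) and -0.17 (adjusted p 0.649).

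In the list of chaperones and exchange factors, 29 of 34 genes were measured, 3 higher (10.3%) and 7 lower (24.1%), beside 8.18% and 12.8% of all genes (median -0.03). Set, a histone chaperone and inhibitor of histone acetylation, rose by 0.78 (adjusted p 0.0018), and Asf1b, an H3-H4 chaperone, by 0.24 (adjusted p 0.0353). The Asf1b call ended when any one of the 8 arrays was left out (adjusted p 0.0508 to 0.0894) and under median scaling (0.0692). Its paralogue Asf1a differed by -0.01 (adjusted p 0.926), and Nasp, which holds the soluble H3-H4 reserve, by -0.09 (adjusted p 0.507). A second Nasp probe set passed at -0.40 (adjusted p 0.0248), so the sets of this gene disagree.

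The H3.3 deposition complex of Hira, Ubn1, Ubn2 and Cabin1 was looked at after the values were seen. Ubn1 fell by 0.66 (adjusted p 0.0013), and by 0.61 in its other probe set (adjusted p 0.0086). Ubn2 fell by 0.50 (adjusted p 0.0144) and Cabin1 by 0.38 (adjusted p 0.0170), each in 1 probe set of 4 and of 3, and the Cabin1 call ended without wild-type array 4 (adjusted p 0.0503). The Ubn2 call ended with the mean of its probe sets (adjusted p 0.0676). Hira, the subunit that names the complex, read 8.31, 7.72, 7.87 and 7.90 against 7.89, 7.55, 7.59 and 7.40 (difference -0.34, adjusted p 0.148).

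Factors that exchange H2A.Z were looked at after the values were seen, and of Anp32e, Srcap, Ep400 and Vps72 the first pair fell. Anp32e, which removes H2A.Z, fell by 0.70 (adjusted p 0.0031), from 9.80, 9.86, 9.70 and 10.10 to 8.87, 9.25, 9.26 and 9.25, and by 0.74 in its other probe set. Srcap, the ATPase that deposits H2A.Z, fell by 0.42 (adjusted p 0.0108) in 1 of its 4 probe sets. With the mean of its probe sets, the Srcap call ended (-0.09, adjusted p 0.441). Ep400, another ATPase of H2A.Z exchange, differed by -0.12 (adjusted p 0.339) and Vps72, an H2A.Z chaperone, by -0.13 (adjusted p 0.467).

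**Figure D5:**
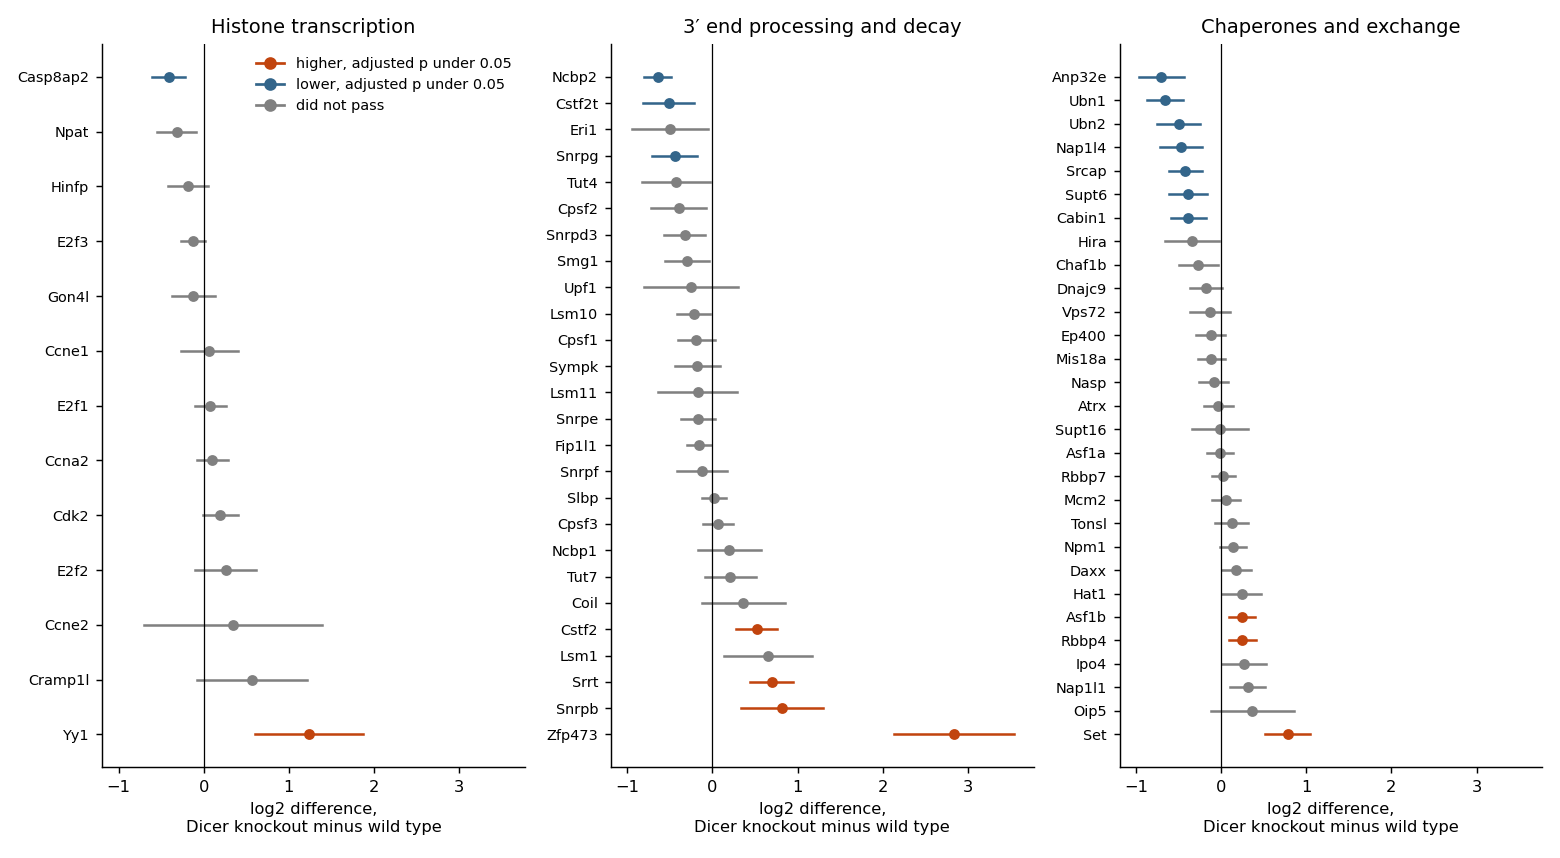
Log2 difference (knockout minus wild type, horizontal axis) with its 95% interval for each measured gene of the lists for histone transcription (13), 3′ end processing and decay (26) and chaperones and exchange (29); red higher, blue lower, grey not passed. Zfp473 stands at 2.84, the rest of the genes between -0.70 and 1.23.

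A list of other histone and sperm chromatin proteins, such as the centromeric H3 Cenpa and the protamines, had 7 measured genes besides H2al2a. Of these, 0 were higher and 0 lower in limma, beside 8.18% and 12.8% of all genes, with Prm2 alone under an unadjusted p of 0.05. The genes whose pattern over the 8 arrays was most like that of H1f8 were Fbxl2 (Pearson r 0.988), 2300002M23Rik (0.985), Zar1 (0.983), Fam90a1b (0.980) and Iqcg (0.979). Each of these was lower in the knockout and the 2 group means drive such an r, so it is given as a description with no test. Zar1, a maternal gene of the early embryo, read 13.75, 13.66, 13.82 and 13.85 in the wild type and 13.45, 13.46, 13.38 and 13.40 in the knockout, with wild-type array 2 the lowest and array 4 the highest of the wild type, as for H1f8.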

How the data were processed

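Per the submitters' processing notes, the authors made the deposited log2 signals with RMA and Partek (the sources used here give no versions), which corrects background, scales arrays to one another and summarises probes, and compresses low signals. Arrays came from 4 wild-type and 4 Dicer knockout mice, by the genotype label, 1 array per mouse. Array medians ran from 6.35 to 6.43, and arrays correlated at 0.9915 to 0.9947 within and 0.9797 to 0.9865 between genotypes. All 45037 probe sets that are not controls were fitted with limma 3.58.1 (R 4.3.3, lmFit and eBayes) and adjusted with the Benjamini-Hochberg method, with a threshold of 0.05. Of these, 34945 list 1 gene symbol, 932 several and 9160 none, and 34741 matched RefSeq. The code was tested on simulated data. Members and gene lists were chosen with earlier results of these data known. The text names all 24 genes and, from each histone pathway list, the 2 with the lowest p in each direction among those that passed, and Slbp, Npat, Lsm10, Lsm11, Zfp473, Nasp, Hira, Asf1a and Asf1b. Cabin1, Ubn2, Srcap, Ep400, Vps72, Snrpb, Cstf2, Prm2 and the markers beside Mos, Zar1, Cd68, Tek and Kdr were named after their values were seen. The genes Pou2f1, Chaf1a, Npm2, Npm3, Ssrp1, Hjurp and H2al1m were not analysed here. Alternatives were the filter on dim probe sets, scaling, variance model, array weights, replicate block, probe set choice and leaving out each array.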

Additional observations from a re-analysis of the deposited data

Results flagged for a closer look

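In groups of 4 arrays, a value was marked where its gap to the nearest other value took up most of the group's range. Of 150 groups of 4 looked at (the 24 histone genes, the named list genes and the 27 shared probe sets), 9 were marked, where about 7.5 would be by chance. Knockout array 1 was the marked one in 5 of the 9, each time below the rest of its group: H2aw at 8.25 (others 9.11 to 9.24), Anp32e at 8.87 (others 9.25 to 9.26), and 3 shared probe sets, of which the H4 sets read 5.92 (others 6.32 to 6.39) and 4.28 (others 4.69 to 4.71) and the H2bu1-ps and H2bu2 set read 6.44 (others 7.02 to 7.14). Wild-type array 1 stood above its group in the H2az1 set shared with Gm8203, at 10.71 (others 9.78 to 9.93), and in the set of 10 H2A genes, at 7.17 (others 6.55 to 6.62). Wild-type array 4 stood above its group for Nasp, at 11.41 (others 11.24 to 11.26), and wild-type array 3 in an H4 set, at 10.60 (others 9.95 to 10.03). The 24 genes alone gave 1 of these, H2aw.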

How the results depend on the processing

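Of the 8 genes of the pattern as written, 1 was lower in every alternative. The count of higher genes was 1; it was 0 with the filter on dim probe sets, under quantile scaling and under median scaling, 2 with probe sets averaged per gene, and 0 to 1 when each array was left out. The median over the 8 genes was 0.15, 0.11 with the filter, and 0.12 to 0.17 when each array was left out. With the older symbols (an extension chosen after seeing the data), leaving out each array gave 1 to 4 higher genes, 2 to 3 lower genes and a median of 0.048 to 0.162. Over the union of all lists, markers included, 29 of 127 genes were lower (22.8%) and 9 higher (7.09%), beside 12.8% and 8.18% of all genes, with 19 to 28 lower and 6 to 11 higher when each array was left out; the fewest lower came without wild-type array 1. Genes near 0 with no call changed sign: under quantile scaling H2bc22 (-0.0088), Macroh2a1 (0.016) and Asf1a (0.022); under median scaling Slbp (-0.010); under cyclic loess scaling H2bc22 (-0.013), Macroh2a1 (0.047), Nasp (0.0026) and Asf1a (0.053). When single arrays were left out, H1f6 ran from -0.081 to 0.011, H1f7 from -0.071 to 0.044, H2al2a from -0.0015 to 0.148, H2bc18 from -0.030 to 0.183, H2bc22 from -0.112 to 0.142, Macroh2a1 from -0.105 to 0.051, Asf1a from -0.041 to 0.016 and Lsm11 from -0.338 to 0.0020. The cause was not tested. The titles carry a code of which 2 of 5 values occur in both groups; with it as a random replicate block (consensus correlation -0.08) 1 gene was higher and 1 lower of the 8, and 4 and 3 of the 24.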
